A study of Homo sapiens with 12 samples.

Results

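Long intergenic noncoding RNAs (lincRNAs) are long transcripts that lie outside protein-coding genes and have no long open reading frame. The set described here holds 291 lincRNA genes of 58290 genes in all. A gene was included when 1 or more of its transcript models carried the lincRNA biotype in the deposited tables and had a mean of at least 20 estimated counts over the 12 libraries. Genes whose symbols start with SNHG, and GAS5 and ZFAS1, which host small nucleolar RNAs, were left out. Of 13253 lincRNA models in 7675 genes of any level, 380 models passed. Members were thus chosen by their estimated counts over all 12 libraries, so a member's overall level is a description. The last models inside the limit were those of LINC01232 with 20.09 and AL359504.2 with 20.17 counts, and the nearest outside were those of FIRRE with 19.94 and AF127577.4 with 19.77 counts. Each member was then measured over all models of its gene, and all 291 passed the low-count filter of the fit.

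RNA came from HEK-293T, a human embryonic kidney line that carries SV40 large T antigen. All 12 libraries came from cells with a CIRTS protein, an RNA-guided effector assembled from human protein parts, and a guide RNA. The nuclease-NT group had the CIRTS-12 nuclease effector with a non-targeting (NT) guide, and nuclease-SMARCA4 had that effector with a guide against SMARCA4, the mRNA of the BRG1 chromatin-remodelling ATPase. The YTHDF2-NT and YTHDF2-SMARCA4 groups had the CIRTS-3 YTHDF2 effector, made with a reader of N6-methyladenosine (m6A) that recruits deadenylases, and the same pair of guides. Each group has 3 libraries, which the series calls biological replicates; the labels do not say how cultures were grown or handled in batches, so a p-value measures the spread between these libraries.

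LincRNAs are a mixed class. MALAT1 and NEAT1 stay in the nucleus, MALAT1 in speckles that hold splicing factors and NEAT1 as the scaffold of paraspeckles. NORAD and other cytoplasmic lincRNAs bind proteins such as the Pumilio translational repressors, and some lincRNAs are the primary transcripts from which microRNAs are cut. Most are expressed at lower levels than mRNAs, and many start close to the promoter of a coding gene on the other strand.

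Several sequences show what kind of RNA is counted in this class. Each is a stretch of a transcript model in GENCODE 29 (GRCh38), printed on the transcript's own strand. FP671120.3 is 1 of 3 identical 923-base models that held the most counts of any member. It lies at chr21:8210384-8211306 on the minus strand, inside the 18S ribosomal RNA gene RNA18SN2 and opposite to it, and bases 1 to 120 of the model are shown, with no base in capitals. MALAT1 (chr11:65506023-65506161, plus strand) and NEAT1 (chr11:65445421-65445540, plus strand) are shown around the A-rich tract near the 3′ end of their long models, in capitals. In both RNAs the tract is known to fold with upstream U-rich stretches into a triple helix that takes the place of a poly(A) tail. In the 8708-base MALAT1-202 model, 353 bases follow the tract, a part that RNase P is known to cut off as the precursor of a tRNA-like RNA. AC009404.1 (chr2:117839209-117839329, plus strand) is shown with its run of 31 A in capitals.
FP671120.3: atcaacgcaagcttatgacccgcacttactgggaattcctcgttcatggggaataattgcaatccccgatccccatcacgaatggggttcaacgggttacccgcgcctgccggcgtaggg
MALAT1: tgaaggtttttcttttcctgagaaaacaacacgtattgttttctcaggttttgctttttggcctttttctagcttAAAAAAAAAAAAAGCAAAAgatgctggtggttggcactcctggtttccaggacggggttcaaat
NEAT1: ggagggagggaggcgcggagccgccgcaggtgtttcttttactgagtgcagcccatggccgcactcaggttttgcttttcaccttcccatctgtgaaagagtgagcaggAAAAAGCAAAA
AC009404.1: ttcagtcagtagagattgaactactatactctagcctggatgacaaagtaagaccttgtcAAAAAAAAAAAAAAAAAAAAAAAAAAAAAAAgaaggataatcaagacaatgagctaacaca

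NORAD (chr20:36045622-36050960, minus strand) is an RNA of 5339 bases and 1 exon. It held 15 copies of TGTANATA, the element bound by Pumilio proteins, counted on the transcript strand with overlaps allowed. The first copy starts at base 761 and the last at base 4599. A set of 4 of the 15 windows is shown, with the element in capitals; they were picked after the sequences were seen because the same letters flank the element, and the other windows differ. Of 12568 GENCODE 29 transcripts of 4000 to 7000 bases, 40.5% held 1 or more copies. At least as many as in NORAD were held by 3 (0.0239%), NORAD itself included. HCG11, another member and also 1 of these 3, had 16 copies in 5696 bases. It was picked out after its count was seen. A match describes letters, not binding.
NORAD site 2: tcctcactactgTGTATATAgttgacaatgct
NORAD site 4: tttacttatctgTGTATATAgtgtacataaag
NORAD site 11: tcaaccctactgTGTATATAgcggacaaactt
NORAD site 12: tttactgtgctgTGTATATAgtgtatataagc

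The members include 6 microRNA host genes, out of 59 symbols of that form. The mature microRNAs inside them on the same strand are listed from RefSeq (GRCh38.p14) for the main arms, with the seed (bases 2 to 8) in capitals. In MIR17HG, miR-17-5p and miR-20a-5p share the seed AAAGUGC, and miR-19a-3p and miR-19b-3p share GUGCAAA. In MIR222HG, miR-221-3p and miR-222-3p share GCUACAU. The libraries measured the host RNAs and not these mature forms.
miR-17-5p: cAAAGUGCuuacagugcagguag
miR-20a-5p: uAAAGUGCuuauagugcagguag
miR-18a-5p: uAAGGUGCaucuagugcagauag
miR-19a-3p: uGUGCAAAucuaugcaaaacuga
miR-19b-3p: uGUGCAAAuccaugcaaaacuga
miR-92a-3p: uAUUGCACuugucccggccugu
miR-193b-3p: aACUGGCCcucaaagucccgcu
miR-365a-3p: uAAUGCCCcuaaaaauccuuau
miR-210-3p: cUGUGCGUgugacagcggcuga
miR-221-3p: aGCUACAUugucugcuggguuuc
miR-222-3p: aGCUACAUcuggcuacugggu
miR-34a-5p: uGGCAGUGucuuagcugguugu
miR-4458: aGAGGUAGguguggaagaa

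Library totals ran from 9207196 to 18047859 estimated counts. Of the HEK-293T markers, VIM (637 to 759 CPM, counts scaled to the library total), NEFL (75.6 to 109 CPM) and KRT18 (60.3 to 92.2 CPM) were present in every library. HBB, KRT5 and KRT14 were at 0 in all 12 libraries and PTPRC was at 0 in 11. SMARCA4 lay at 225 to 245 CPM in nuclease-NT, 219 to 250 in nuclease-SMARCA4, 234 to 302 in YTHDF2-NT and 210 to 243 in YTHDF2-SMARCA4. Its edgeR adjusted p for the guide was 0.985 with the nuclease and 0.703 with YTHDF2. Counts assigned to the YTHDF2 gene were 249 to 283 CPM in nuclease-NT, against 5430 to 8010 CPM in YTHDF2-NT. They can include RNA of the YTHDF2 effector, which was not told apart from the cells' own YTHDF2 RNA. Libraries of the YTHDF2-NT group stood apart by transcript length: over all 16297 genes tested, the rank correlation of length with a gene's deviation from its own mean was -0.5 in replicate 1 and 0.45 in replicate 2. Over the members it was -0.19 and 0.29.

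The members held 0.409% to 0.732% of the estimated counts of a library. Their models were short and lowly expressed: the median length of the main model was 1634 bases, the median mean level was 4.01 TPM (a unit that divides counts by transcript length), and the median gene had 56.3 estimated counts a library. By name, 165 of 291 (56.7%) carried only a clone accession. Of 285 members found in GENCODE 29, 67 (23.5%) started within 1000 bases of a coding gene start on the opposite strand. Examples are APTR beside RSBN1L and TP53TG1 beside CROT. Of all lincRNA genes there, 512 of 7629 (6.71%) did. Those genes were taken whatever their level, while members were chosen by their counts, so the shares are not for genes of like level. A single exon made up 93 of 279 main models. Words of 31 bases shared with other genes made up 50% or more of 66 of 283 main models and all of 14. Among the 66 were CYTOR (68.9%), JPX (74.3%), FTX (81.4%) and GLIDR (93.3%), with others named below. Counts of such members may include reads of other genes, which was not tested. Of 279 main models, 73 overlapped an exon on the other strand. No source used here gives the strand setting of the counting, so counts of such overlapping pairs may be shared.

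Per length, the identical 18S-opposite models led with 1272 TPM each, subject to the limit on strand given in the next paragraph. AC009404.1 followed with 394 TPM, MALAT1 with 165 TPM and DANCR, a suppressor of differentiation, with 129 TPM. EPB41L4A-AS1, which hosts a small nucleolar RNA, had 95.3 TPM. LINC01578, also called CHASERR, lies upstream of the remodeller gene CHD2 and had 82.8 TPM. JPX, an activator of X inactivation, had 80.3 TPM and MAPKAPK5-AS1 had 65.5 TPM. NORAD, although 2500 counts a library fell on it, had 38.3 TPM because of its length.

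The 3 identical models FP671120.3, FP236383.2 and FP236383.3 lie inside 18S genes RNA18SN2, RNA18SN3 and RNA18SN1, on the strand opposite to each. A related model, FP671120.4, lies inside the pseudogene RNA18SP5. The strand setting of the counting is not given in any source used here. Wherever these models are reported, their counts may therefore include 18S ribosomal RNA from the other strand, which was not tested. Since reads cannot tell identical models apart, the 3 received the same number, a mean of 12462.7 estimated counts each, and count as 1 measurement. Each read 545.4, 626.8 and 529.6 CPM in nuclease-NT, 1479.8, 591.9 and 474.3 in nuclease-SMARCA4, 1160.3, 1449.8 and 1177.5 in YTHDF2-NT, against 666.8, 865.3 and 1355.4 in YTHDF2-SMARCA4. The 3 YTHDF2-NT libraries lay above the 3 nuclease-NT libraries, while 1 library of nuclease-SMARCA4 lay far above the other two of its group. With the NT guide the log2 fold change of YTHDF2 over the nuclease was 1.15 (SE 0.345, edgeR adjusted p = 0.291), and a fit of those groups alone, which called these 3 models as its only members (background 0.0388%), gave an adjusted p of 0.0197 (alternatives from 1.45e-34 to 0.615). With the SMARCA4 guide it was 0.18 (adjusted p = 0.865, with a sign that differs between alternatives, -0.15 to 0.85) and the groups overlapped.

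The 4 models inside 18S genes held 0.144% to 0.441% of a library, a 3.06-fold range, and the other 287 members 0.265% to 0.328%, a 1.24-fold range. Among the other members the share was 0.299% ± 0.0251 (SD, n = 3) in nuclease-NT, 0.273% ± 0.00724 in nuclease-SMARCA4, 0.301% ± 0.00692 in YTHDF2-NT and 0.293% ± 0.0104 in YTHDF2-SMARCA4. Nuclease-SMARCA4 did not overlap nuclease-NT or YTHDF2-SMARCA4. The exact two-sided permutation p was 0.1 for each, the smallest that 3 against 3 can give, with ratios of 0.913 for the guide and 1.07 for the effector.

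**Figure D1:**
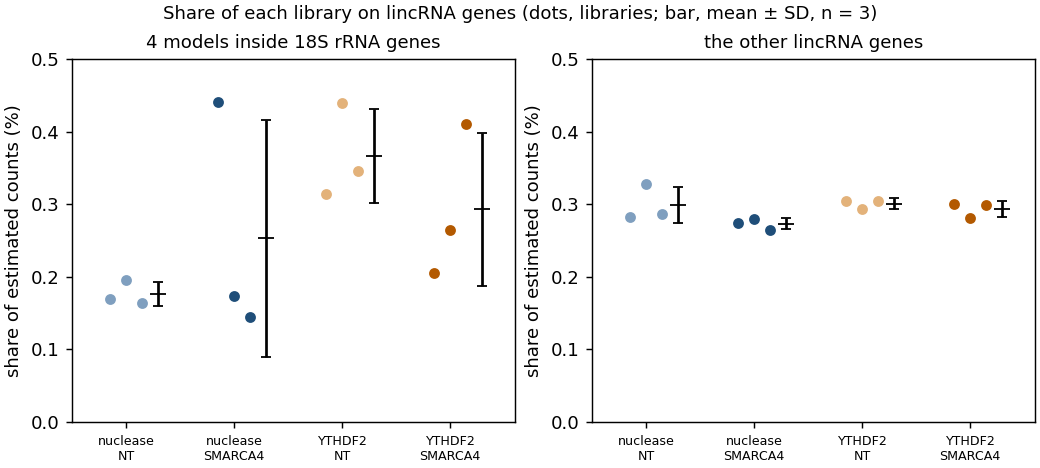
Share of estimated counts (%, y axis) on the 4 models inside 18S genes (left) and on the other 287 lincRNA genes (right) in the 4 groups (x axis); dots are libraries and the bar beside them the mean ± SD, n = 3. The left values run from 0.144% to 0.441%, the right ones from 0.265% to 0.328%.

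The first comparison asked what the SMARCA4 guide changed with the nuclease effector. No member of 291 was called at an edgeR adjusted p below 0.05, where 0.00614% of all genes tested were. At an unadjusted p below 0.05 there were 35 members (12%; 13 higher and 22 lower with the SMARCA4 guide), against a background of 10.9% of all genes (768 higher and 1016 lower). DESeq2 called 2 members, PVT1 and C2orf48, against a background of 0.979%. The median log2 fold change was -0.02 over the members and -0.0 over all genes, and the median size of the change was 0.2 against 0.14. Libraries of the groups did not overlap for 52 members (17.9%), against 25.1% of all genes, 22 of them higher (12.8% of all genes) and 30 lower (12.2%).

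PVT1, a lincRNA next to MYC whose promoter competes with that of MYC, had the smallest p. It was at 27.6, 32 and 34.6 CPM in nuclease-NT against 15, 18.8 and 20.7 CPM in nuclease-SMARCA4. Every nuclease-SMARCA4 library lay below every nuclease-NT library; as in all bulk RNA, fewer cells with an RNA and less of it per cell cannot be told apart. The log2 fold change was -0.79 (SE 0.148, a fold of 0.579), with an edgeR adjusted p of 0.142, a DESeq2 adjusted p of 0.0017 and 0.0163 in a fit of those groups alone. Leaving out YTHDF2-NT replicate 1 or 2, which are not in this contrast but share its spread, gave edgeR adjusted p-values of 0.0416 and 0.0323; over 22 alternatives the adjusted p ran from 2.87e-06 to 0.601, and the log2 fold change from -0.89 to -0.67. C2orf48 read 3.65, 5.15 and 3.36 CPM against 1.75, 1.48 and 1.86 CPM, again without overlap. It had a fitted log2 change of -1.27 (SE 0.268, adjusted p = 0.142 by edgeR and 0.0255 by DESeq2, with alternatives from 0.00826 to 0.646).

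The next smallest p-values belonged to DUBR, AC016205.1 and AC092747.4, all lower with the guide in each library. DUBR read 7.68, 10.2 and 9.02 CPM in nuclease-NT, compared with 5.75, 6.05 and 5.59 CPM in nuclease-SMARCA4, or -0.63 as a log2 fold change (SE 0.162, adjusted p = 0.211). AC016205.1 read 18.2, 19.8 and 20.5 against 15.8, 15.1 and 12.2 CPM (-0.43, SE 0.114, adjusted p = 0.214). AC092747.4 had a fitted log2 change of -0.57 (SE 0.152, adjusted p = 0.214). LINC01578 was at 56.8 to 65.0 CPM and then 47.5 to 50.1 CPM (-0.33, adjusted p = 0.267). The fit of these groups alone called 6 members, PVT1, C2orf48, DUBR, LINC01578 and LINC00641 lower and RPARP-AS1 higher, against a background of 3.57% of genes; LINC00641 and RPARP-AS1 are named after their values were seen.

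**Figure D2:**
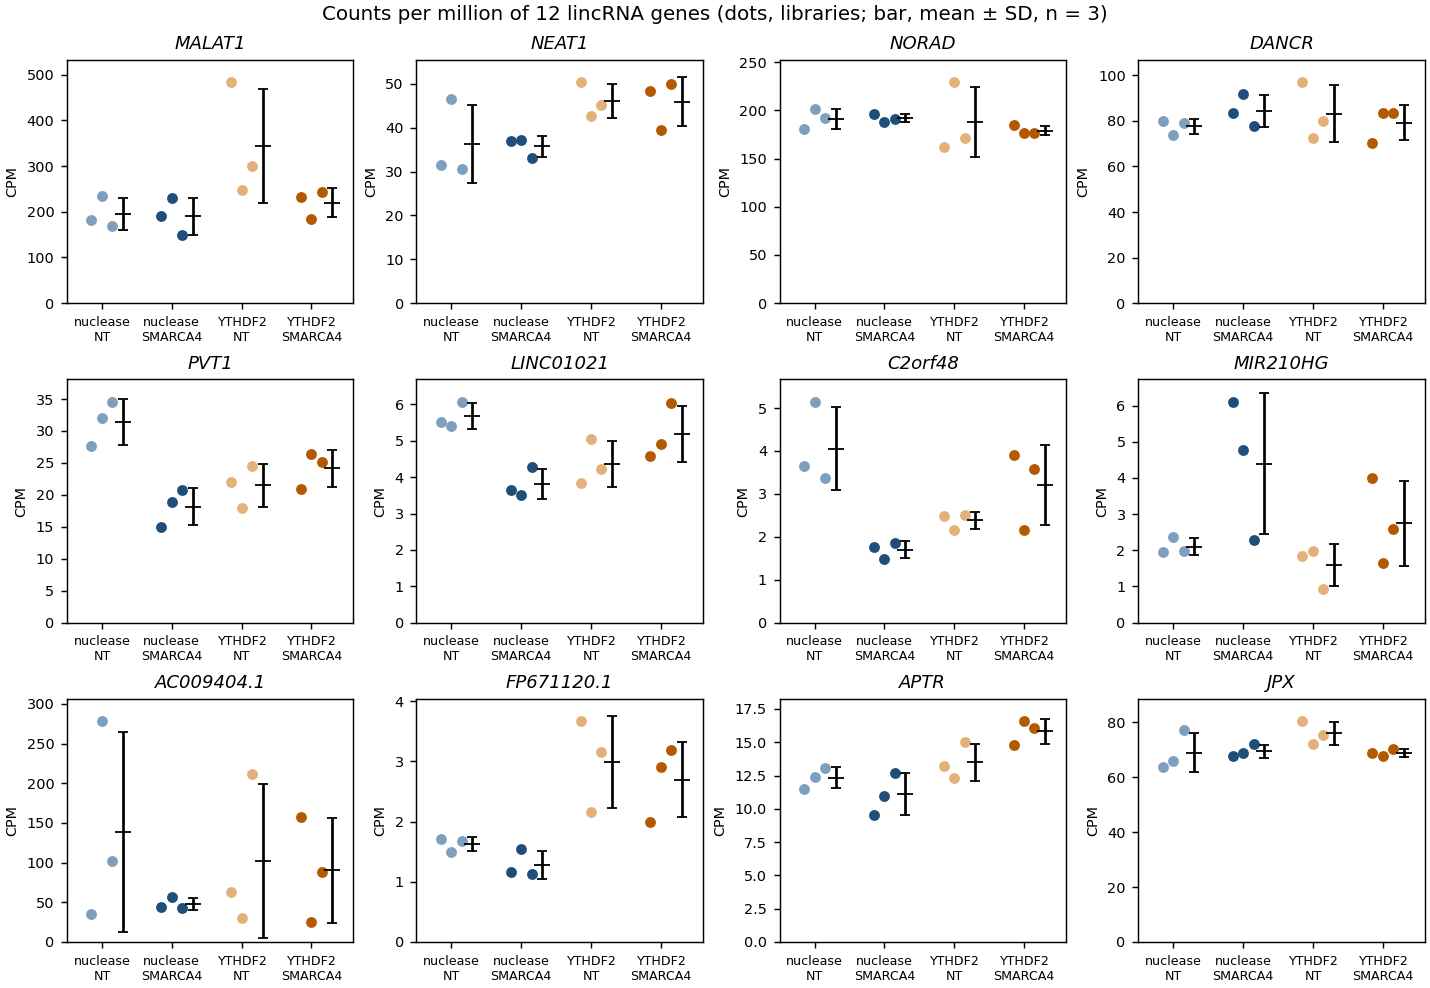
CPM (y axis, from 0) of 12 lincRNA genes in the 4 groups (x axis); dots are libraries, the bar beside them the mean ± SD, n = 3. PVT1 and C2orf48 separate the nuclease groups, NORAD is nearly level, and AC009404.1 spreads from 25.6 to 278.4 CPM.

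With the YTHDF2 effector the same question was put to the other pair of groups. No member was called by edgeR (background 0%) or by DESeq2 (background 0.167%). DESeq2 gave an adjusted p to only 2399 genes in this comparison, and a gene without one could not be called. By edgeR, 28 members (9.62%, 9 higher and 19 lower) had an unadjusted p below 0.05, where 6.82% of all genes did (397 higher, 715 lower). The smallest edgeR adjusted p was 0.703. The median log2 fold change was -0.06, against -0.009 over all genes, and 31 members (10.7%) had groups without overlap, against 9.27% of all genes. Of these, 12 were higher (4.29% of all genes) and 19 lower (4.98%). AC092171.2 read 16.1, 12.9 and 13.9 CPM in YTHDF2-NT, against 9.23, 9.85 and 9.9 CPM in YTHDF2-SMARCA4. Its groups did not overlap, and its log2 fold change was -0.56 (SE 0.128, adjusted p = 0.703). AL162632.1, GLIDR and AL512625.3 were also among the smallest p-values, with log2 fold changes of 1.12, -0.54 and -0.66. Without YTHDF2-NT replicate 2, 14 members were called, 2 higher and 12 lower, and 9.46% of all genes were; MALAT1, CRNDE, GLIDR and AC092171.2 were among them.

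The difference between these guide effects was tested in the same model. No member was called by edgeR (background 0%), 36 (12.4%) had an unadjusted p below 0.05 against 11.1% of all genes, and DESeq2 called PVT1 alone (background 0.216%). PVT1 was 22.0, 17.9 and 24.5 CPM in YTHDF2-NT, against 20.9, 26.4 and 25.1 CPM in YTHDF2-SMARCA4, overlapping groups with a log2 fold change of 0.17. Set against -0.79 with the nuclease, the difference was 0.96 (SE 0.208), with an edgeR adjusted p of 0.222 and a DESeq2 adjusted p of 0.023 (alternatives from 8.78e-05 to 0.519). C2orf48 differed by 1.69 (SE 0.374, adjusted p = 0.231) and DUBR by 0.86 (SE 0.227, adjusted p = 0.297). AC016205.1 and LINC00648 differed by 0.71 and 1.26 (adjusted p = 0.239 and 0.297). Without YTHDF2-NT replicate 2 there were 14 calls, these 5 genes among them, where 8.62% of all genes were called.

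**Figure D3:**
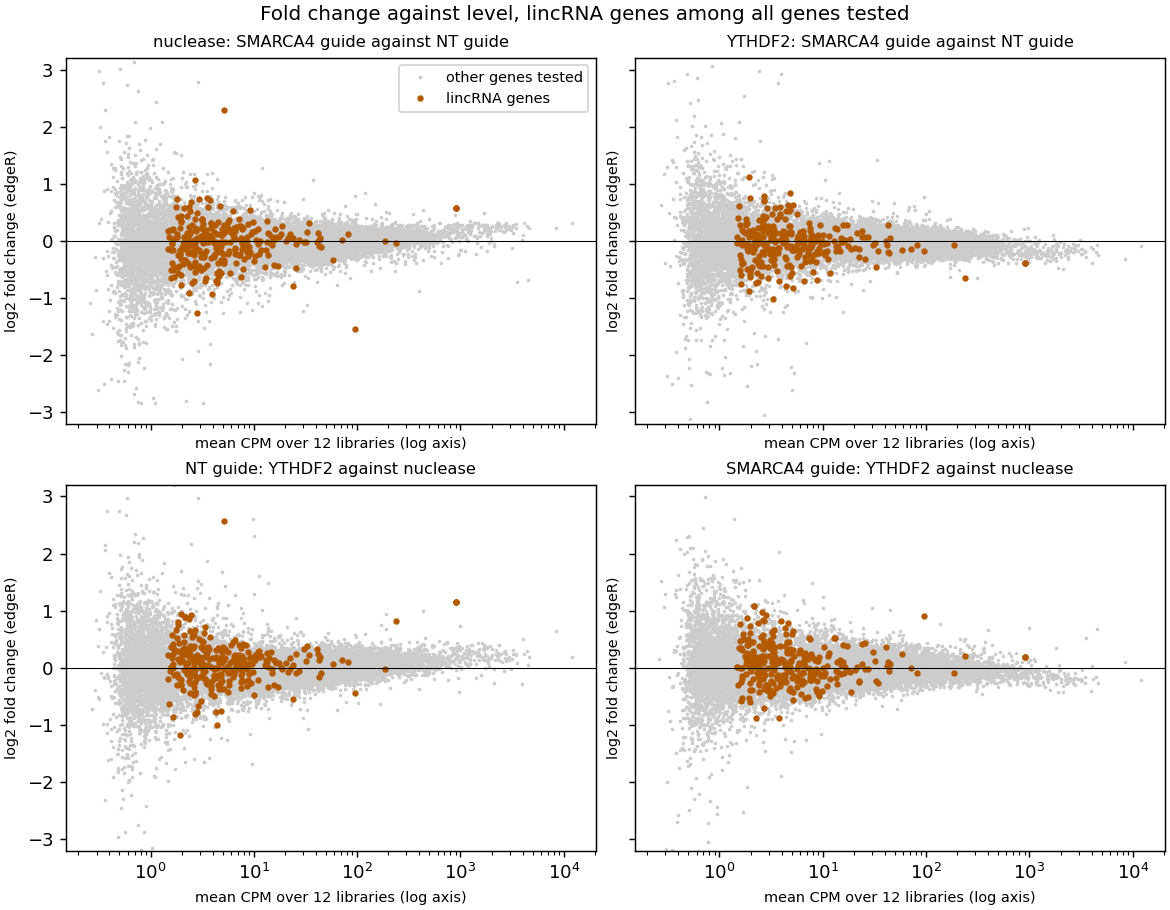
Log2 fold change (edgeR, y axis) against mean CPM over 12 libraries (x axis, log scale) in 4 comparisons; orange points are lincRNA genes and grey points the other genes tested, some of which lie beyond the axis limits. The single orange point at a log2 fold change of 2.3 (top left panel) and 2.57 (bottom left panel) is FP671120.4, and the point at -1.54 in the top left panel is AC009404.1.

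The effectors were compared within each guide and averaged over the guides. No member was called by edgeR with the NT guide (background 0.0491%), with the SMARCA4 guide (0.00614%) or averaged (0.0307%). Unadjusted p-values below 0.05 numbered 36 (12.4%; background 10.9%), 41 (14.1%; 11.5%) and 35 (12%; 11.5%). DESeq2 called 0 with the NT guide (background 1.5%), 0 with the SMARCA4 guide (0.694%) and 2 averaged (1.2%). It gave an adjusted p to 6420, 13120 and 13790 genes in this order, and a gene without one could not be called. Libraries did not overlap for 43 members (14.8%) with the NT guide, where 12.8% of genes did not. With the NT guide 26 were higher (6.86% of all genes) and 17 lower (5.96%). With the SMARCA4 guide there were 61 (21%), against 26.8%, with 39 higher and 22 lower (13.4% of all genes each way). The members' median log2 fold changes were 0.08, 0.04 and 0.06, against 0.006, 0.001 and 0.006 over all genes. In the averaged comparison 26 of the 35 were higher with YTHDF2 and 9 lower, or 23 higher and 9 lower with members of identical sequence counted once. Over all genes at that p, 1053 were higher and 827 lower.

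The 2 averaged calls by DESeq2, FP671120.1 and FP236383.1, have the same sequence and the same counts and are 1 measurement. Their 2498-base model has 7 exons spread over chr21:8197620-8227646 on the plus strand, and the ribosomal precursor gene RNA45SN2 lies between its exons; none of their bases fall within it. Each read 1.71, 1.49 and 1.68 CPM in nuclease-NT, 1.16, 1.55 and 1.13 in nuclease-SMARCA4, 3.67, 2.16 and 3.15 in YTHDF2-NT, against 1.99, 2.91 and 3.19 in YTHDF2-SMARCA4. All 6 YTHDF2 libraries lay above all 6 nuclease libraries. The averaged log2 fold change was 0.98 (SE 0.198, a fold of 1.97), with an adjusted p of 0.136 by edgeR, 0.0222 by DESeq2 and 0.0229 by edgeR without YTHDF2-NT replicate 2 (alternatives from 0.0125 to 0.396). The 18S-opposite models on the same chromosome had an averaged log2 fold change of 0.67 (adjusted p = 0.318).

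AC003684.1 on the X chromosome had the next smallest averaged p, with 1.36 to 1.78 CPM in nuclease-NT, against 2.65 to 3.29 CPM in YTHDF2-NT (averaged log2 fold change 0.77, SE 0.178, adjusted p = 0.168). APTR, which represses the cell-cycle inhibitor p21 with Polycomb, read 9.54, 11 and 12.7 CPM in nuclease-SMARCA4 and 14.8, 16.6 and 16.1 CPM in YTHDF2-SMARCA4. Those groups did not overlap and had a fitted log2 change of 0.52 (SE 0.124, adjusted p = 0.233). PSMG3-AS1 went the other way with the NT guide, 5.2, 5.97 and 4.83 CPM against 3.75, 2.99 and 2.65 CPM (-0.78, SE 0.186, adjusted p = 0.23), and AL035461.2 was higher with YTHDF2 in both guides (averaged 0.77, adjusted p = 0.183). FP671120.4 had the largest fitted value, 2.57 with the NT guide (adjusted p = 0.276), on 2.64, 1.15 and 0.0 CPM against 3.27, 8.38 and 12.3 CPM. The fit of the 2 SMARCA4-guide groups alone called 6 members, APTR, FTX, NEAT1 and LINC00641 higher and AC245595.1 and AC138904.1 lower, against 4.25% of genes, where LINC00641 and the pair of lower genes are named after their values were seen. Without YTHDF2-NT replicate 2, the NT-guide comparison called 15 members (11 higher, 4 lower), MALAT1, AC003684.1, PSMG3-AS1 and FP671120.1 among them, against 9.61% of all genes.

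Of the nuclear-retained list of 7 symbols, 3 were members: MALAT1, NEAT1 and PVT1. TUG1 and LINC-PINT carry the antisense biotype in these tables, and FIRRE and MEG3 fell below the limit. MALAT1 read 182.0, 234.5 and 168.3 CPM in nuclease-NT, 190.5, 230.7 and 149.9 in nuclease-SMARCA4, 483.5, 246.6 and 299.6 in YTHDF2-NT, against 232.4, 183.7 and 243.0 in YTHDF2-SMARCA4. All 3 YTHDF2-NT libraries were above those of the other groups. The highest, replicate 1, is also the library with the strongest negative length trend, and a link between these was not tested. The log2 fold change was 0.81 (SE 0.224, adjusted p = 0.288) for YTHDF2-NT over nuclease-NT, 0.99 with an adjusted p of 0.0124 without YTHDF2-NT replicate 2 (alternatives from 1.56e-14 to 0.855), and -0.64 (SE 0.223, adjusted p = 0.703) for the guide with YTHDF2. With the nuclease the guide effect was -0.04 (adjusted p = 0.973). Without YTHDF2-NT replicate 2 and with a length trend removed, the value for YTHDF2-NT over nuclease-NT was 0.96 (edgeR adjusted p = 0.0116).

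NEAT1 read 31.6, 46.6 and 30.6 CPM, then 36.9, 37.3 and 33.0, in the nuclease groups and 50.4, 42.7 and 45.1, then 48.3, 39.5 and 49.9, in the YTHDF2 groups. With the SMARCA4 guide every YTHDF2 library was higher. With the NT guide 1 nuclease library, at 46.6 CPM, lay among the YTHDF2 values. The log2 fold change averaged over guides was 0.35 (SE 0.104, a fold of 1.27, adjusted p = 0.228), and the guide effects were -0.03 and -0.0. Within the list, 3 of 3 were higher in YTHDF2-SMARCA4 than in nuclease-SMARCA4 (median 0.36, against 0.001 over all genes). With the NT guide, and averaged over guides, 2 were higher with YTHDF2 and 1 lower. For the guide, 3 of 3 were lower with the nuclease (median -0.04), and 1 was higher and 2 lower with YTHDF2. In these comparisons 0 of 3 were called by edgeR. Of the paraspeckle proteins NONO, SFPQ, PSPC1 and RBM14, 0 were called by edgeR in any comparison; with the nuclease their guide effects lay between -0.39 (SFPQ, adjusted p = 0.157) and 0.08 (NONO), 3 of them with an unadjusted p below 0.05, where 10.9% of all genes had one. ELAC2 and RPP21, which take part in 3′ processing of tRNA and tRNA-like RNA, had 0 of 2 called, at 0.01 and 0.1.

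The share of a gene that a transcript model held depended on the unit. The long MALAT1-202 model of 8708 bases held 82.4% of the gene's estimated counts and 14.3% of its TPM, while the 352-base MALAT1-217 held 3.92% and 33.0%. The 22743-base NEAT1-202, which scaffolds paraspeckles, held 68.2% of counts and 6.58% of TPM. NEAT1-205, of 483 bases, held 8.38% of counts and 59.5% of TPM. NEAT1-202 was at 1.24 ± 0.375 TPM in nuclease-NT, 1.1 ± 0.0381 in nuclease-SMARCA4, 1.41 ± 0.0323 in YTHDF2-NT and 1.42 ± 0.205 in YTHDF2-SMARCA4 (SD, n = 3). NEAT1-201, of 1811 bases, was at 5.93 ± 0.482, 5.34 ± 1.08, 5.38 ± 2.0 and 7.69 ± 0.859 TPM in the same order. Models that share bases trade counts, so these splits are estimates of the quantifier.

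**Figure D4:**
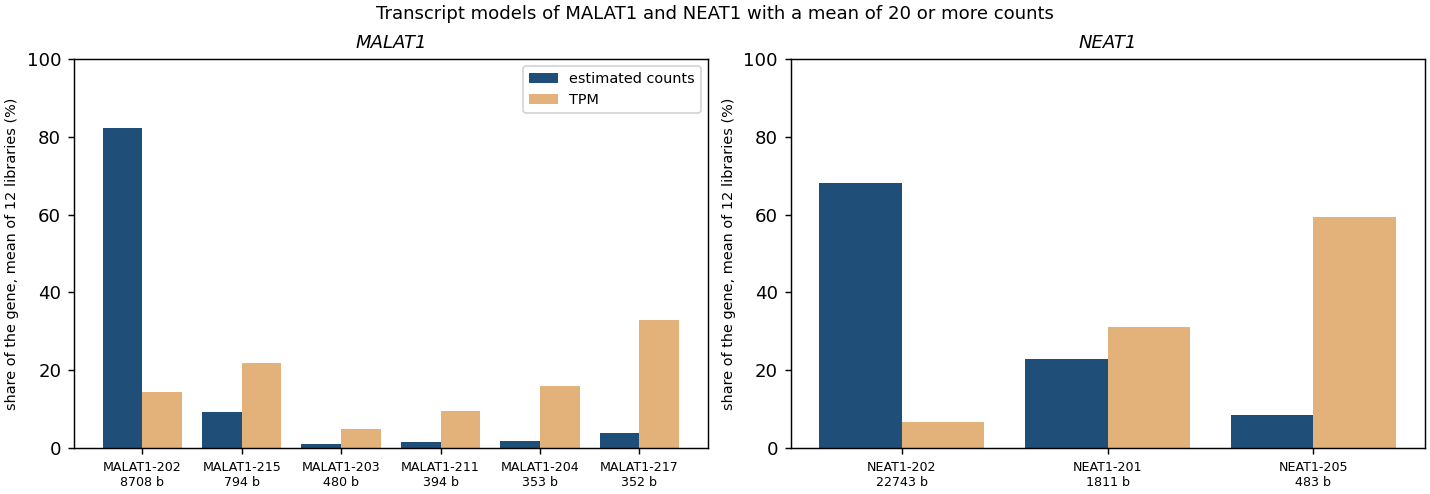
Share of the gene (%, y axis, mean of 12 libraries) held by each transcript model of MALAT1 (left) and NEAT1 (right) with a mean of 20 or more counts, in estimated counts (blue) and TPM (orange); x axis, models from long to short, with length in bases (b). The longest model leads by counts (82.4% and 68.2%) and holds 14.3% and 6.58% by TPM.

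Among 8 symbols listed as cytoplasmic regulators, 5 were members. NORAD, which keeps Pumilio proteins from their mRNA targets, read 180.5, 201.6 and 191.9 CPM in nuclease-NT, 196.2, 188.1 and 190.6 in nuclease-SMARCA4, 161.9, 229.3 and 171.8 in YTHDF2-NT, against 184.6, 176.6 and 176.2 in YTHDF2-SMARCA4. Apart from the 3 YTHDF2-NT libraries, its values stayed between 176.2 and 201.6 CPM, and the guide effects were 0.0 (SE 0.106) with the nuclease and -0.07 (SE 0.106) with YTHDF2. DANCR was at 70.3 to 97.0 CPM over the 12 libraries, with guide effects of 0.12 and -0.07. CRNDE (21.4 to 35.1 CPM), a lincRNA raised in colorectal tumours, and CYTOR (2.48 to 4.84 CPM), a cytoskeleton regulator, had guide effects with YTHDF2 of -0.32 and 0.57, both at an adjusted p of 0.703. Over the alternatives these effects ran from -0.42 to -0.18 for CRNDE and from 0.44 to 2.27 for CYTOR. EPB41L4A-AS1 lay at 25.8 to 38.9 CPM. The list's medians over the 4 pairwise comparisons were 0.0, -0.07, 0.1 and -0.02, with 0 of 5 called by edgeR in each; 2 had an unadjusted p below 0.05 for the guide with YTHDF2 (6.82% of all genes) and 0 in the others.

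Of the microRNA hosts, 0 of 6 were called by edgeR in any comparison, and 2 had an unadjusted p below 0.05 for the guide with the nuclease, where 10.9% of all genes did. MIR210HG, host of the hypoxia-induced miR-210, read 1.94, 2.37 and 1.99 CPM in nuclease-NT, compared with 6.11, 4.78 and 2.27 in nuclease-SMARCA4. The groups overlapped through 1 library and had a fitted log2 change of 1.06 (SE 0.392, adjusted p = 0.355). In the YTHDF2 groups it was 1.84, 1.99 and 0.93 and then 3.99, 1.66 and 2.58 CPM (0.79, SE 0.414, adjusted p = 0.703). MIR193BHG read 2.72, 2.51 and 2.31 CPM in nuclease-NT, compared with 1.82, 0.91 and 1.94 in nuclease-SMARCA4 without overlap (-0.7, SE 0.297, adjusted p = 0.414). For YTHDF2 over the nuclease its averaged log2 fold change was 0.7 (SE 0.201, adjusted p = 0.211). Both MIR193BHG values had either sign among the alternatives. They ran from -0.98 to 0.05 for the guide with the nuclease and from -0.12 to 0.89 for the average. MIR17HG, which carries the oncogenic cluster from miR-17 to miR-92a, lay at 2.83 to 4.43 CPM with guide effects of 0.11 and -0.13. MIR222HG, MIR34AHG and MIR4458HG had guide effects with the nuclease of 0.19, -0.16 and 0.13.

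Of 9 symbols linked to p53, which large T antigen binds and inactivates in this line, 5 were members. They were LINC01021, TP53TG1, MIR34AHG, NEAT1 and PVT1, and NEAT1 and PVT1 are also in the nuclear-retained list. LINC01021, also called PURPL and known to lower p53 levels, read 5.51, 5.42 and 6.08 CPM in nuclease-NT, compared with 3.64, 3.52 and 4.29 CPM in nuclease-SMARCA4. These groups did not overlap (log2 fold change -0.57, SE 0.173, adjusted p = 0.264). With YTHDF2 it was 3.83, 5.06 and 4.22 and then 4.57, 4.92 and 6.05 CPM, overlapping, and the difference between the effects was 0.82 (SE 0.243, adjusted p = 0.365, 0.0383 without YTHDF2-NT replicate 2, alternatives from 0.0341 to 0.687). TP53TG1, a p53 target, had guide effects of 0.08 and -0.37, and MIR34AHG, host of the p53-induced miR-34a, of -0.16 and 0.17. The list's median was -0.16 with the nuclease and 0.17 with YTHDF2, with 0 of 5 called by edgeR. At an unadjusted p below 0.05 there were 2 and 0 of 5 in these comparisons (10.9% and 6.82% of all genes), and 3 of 5 in the effector comparison with each guide (10.9% with NT and 11.5% with SMARCA4). With the NT guide NEAT1 and PVT1 were among these 3. Of the 5, 2 were higher with YTHDF2 and 3 lower with the NT guide, and 4 higher and 1 lower with the SMARCA4 guide. The hypoxia-linked members were MIR210HG, NEAT1 and MALAT1, already given. JPX and FTX, of the X-inactivation centre, had guide effects of 0.01 and -0.46 with the nuclease; FTX was at 7.97 to 18.2 CPM in nuclease-NT. LINC00467, the only member among 10 symbols listed for microproteins, stayed between 12.4 and 18 CPM. None of the 7 developmental and imprinted lincRNAs was a member: HOTAIR carried the antisense biotype, and MEG3 averaged 2.21 counts.

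Members had a higher median spread between libraries of a group than other genes. The median coefficient of variation over 3 libraries was 14.8% in nuclease-NT, 14.9% in nuclease-SMARCA4, 19.9% in YTHDF2-NT and 13.0% in YTHDF2-SMARCA4, against 8.24%, 8.76%, 17.4% and 7.79% over all genes. Over the 4905 other genes with mean levels between 1.92 and 18.7 CPM, the level range of the middle of the members, it was 12.3%, 11.9%, 18.4% and 11.4%. The member medians cover all members, also those outside this range, and levels were not matched within it. A difference in level was therefore not removed, and no test was made of the difference in spread. YTHDF2-NT had the widest spread in each of the 3 sets.

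**Figure D5:**
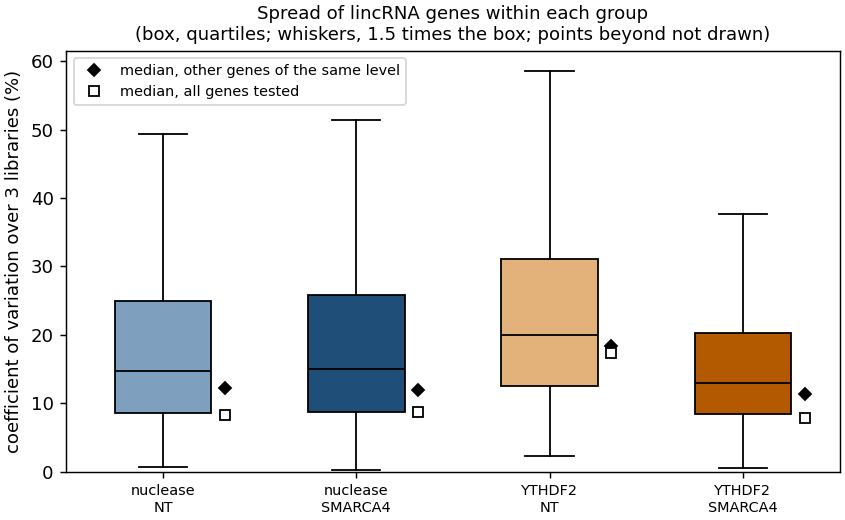
Coefficient of variation over the 3 libraries of a group (%, y axis) of the lincRNA genes in the 4 groups (x axis); boxes give quartiles, whiskers reach 1.5 times the box and points beyond are not drawn. Diamonds (other genes in the level range of the middle of the members, not matched within it) and squares (all genes) mark medians, which lie below the line of each box.

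Among members with counts in every library, AC009404.1 had the highest ratio of highest to lowest library, 10.9. It read 35.1, 278.4 and 101.9 CPM in nuclease-NT, 44.3, 56.4 and 43.2 in nuclease-SMARCA4, 63.3, 29.9 and 212.0 in YTHDF2-NT, against 158.0, 25.6 and 87.6 in YTHDF2-SMARCA4. High and low libraries occurred side by side in every group but nuclease-SMARCA4, and no pairwise comparison separated the groups. Its guide effect with the nuclease, -1.54 on the log2 scale, had an SE of 0.77 (adjusted p = 0.49). The model has 424 bases and the run of 31 A printed above. Over the 18 members with a run of 20 or more A or T, the median coefficient of variation within groups was 18.1%, against 17.4% over the 265 others.

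As YTHDF2 reads m6A, the letters GGACT, the commonest form of the site that the m6A writer uses, were counted on the transcript strand of each main model. They occurred in 206 of 283 members. In models of 800 to 2500 bases they occurred in 109 of 143 members (76.2%), and in 75.9% of all 67866 GENCODE 29 transcripts of that length. The median log2 fold change of YTHDF2 over the nuclease, averaged over guides, was 0.04 in members with the letters and 0.09 in the 77 without. Spearman's rho of copies per kilobase with that fold change was -0.12 across 283 members, which share the same 12 libraries.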

How the data were processed

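For each library the authors deposited estimated counts and TPM of 200403 targets. The tools in the submitters' processing notes are kallisto and sleuth, and the build is hg38; their versions and settings are not given. Members and lists were chosen with earlier results of these data known. Estimated counts were summed per gene ID, rounded, and tested with edgeR 4.0.16 (R 4.3.3): quasi-likelihood, TMM, filterByExpr, 1 mean per group over 12 libraries, 16297 genes, 8 residual degrees of freedom, biological coefficient of variation 11.4%, two-sided, Benjamini-Hochberg over all genes, threshold 0.05. Alternatives were DESeq2 1.42.0, RLE factors, no low-count filter, a length trend removed, a replicate block, only the groups compared, length-scaled TPM, other member limits and leaving out each library. CPM use TMM-scaled totals. Shares were compared by exact permutation tests over libraries. The fit was tested on simulated data. Of 380 qualifying models, 368 matched GENCODE 29 by ID, version and length. Named were list members, the 10 highest by TPM, the 5 smallest p-values per comparison, the genes beside the count limit and the MALAT1 and NEAT1 models. Members linked to sex are counted and not named, and 2 genes that the rule or a list would name are not reported here. Library numbers were not used to pair the groups, except in the replicate block.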

Additional observations from a re-analysis of the deposited data

Results flagged for a closer look

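For 2 of 42 named members the guide effect went opposite ways with the 2 effectors, with no overlap between libraries on either side. The same held for 3 of all 291 members (1.03%), AC104794.2 being the third and named after its values were seen, and for 1.28% of all genes. The share of members was thus not above that of all genes. The 2 named members were named for a small p in the difference of guide effects, so their count follows from that choice. AC016205.1 read 18.2, 19.8 and 20.5 CPM in nuclease-NT, compared with 15.8, 15.1 and 12.2 in nuclease-SMARCA4. With YTHDF2 it read 14.2, 16.0 and 16.2 CPM with the NT guide and 19, 20 and 17.4 with the SMARCA4 guide. The difference of the guide effects was 0.71 on the log2 scale (SE 0.161, edgeR adjusted p = 0.239).

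LINC00648 read 3.72, 2.85 and 3.67 CPM in nuclease-NT, compared with 2.11, 2.18 and 2.67 in nuclease-SMARCA4. It read 1.84, 2.07 and 1.93 CPM in YTHDF2-NT, against 3.99, 2.77 and 2.86 in YTHDF2-SMARCA4. Its guide effects differed by 1.26 (SE 0.323, edgeR adjusted p = 0.297). Neither difference was called. Without YTHDF2-NT replicate 2 both were, with adjusted p-values of 0.0258 and 0.04; over 21 alternatives they ran from 0.0258 to 0.577 and from 0.04 to 0.62.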

How the results depend on the processing

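The count of members called was 0 in each of the 6 comparisons with RLE size factors, length-scaled TPM counts, lincRNA targets alone, the gene sum or 50 counts as the limit, and without the 3 identical models (added after seeing the data). Counts are given next in the order nuclease guide, YTHDF2 guide, difference, NT-guide effector, SMARCA4-guide effector, averaged effector, and the share of all genes called follows in the same order. DESeq2 called 2, 0, 1, 0, 0 and 2 (0.979%, 0.167%, 0.216%, 1.5%, 0.694% and 1.2%). These shares are of the 13790, 2399, 17136, 6420, 13120 and 13790 genes that had a DESeq2 adjusted p. Without the low-count filter there were 10, 8, 13, 8, 1 and 8 (0.963%, 0.619%, 1.43%, 1.04%, 0.856% and 0.729% of 34569 genes). With a length trend removed there were 1, 0, 0, 0, 0 and 0 (0.043%, 0%, 0.0123%, 0.092%, 0.0614% and 0.178%), and with YTHDF2-NT replicate 2 also left out (added after seeing the data) 3, 8, 10, 11, 0 and 5 (1.47%, 4.79%, 5.22%, 4.7%, 0.782% and 2.15%). Fits of only the groups compared gave 6, 0, 3 and 6 in the 4 pairwise comparisons (3.57%, 0%, 0.0388% and 4.25%). Leaving out 1 library gave 0 to 1, 0 to 14, 0 to 14, 0 to 15, 0 to 0 and 0 to 4. The first was 1 without YTHDF2-NT replicate 1 (0.263%) or replicate 2 (0.161%), and the 14, 14, 15 and 4 came without YTHDF2-NT replicate 2 (9.46%, 8.62%, 9.61% and 1.73%). The cause was not tested.

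A replicate block called 0 members in every comparison. The deviations of same-numbered libraries had correlations from -0.08 to 0.06. Whether these libraries were handled together is not stated. As the main fit also called 0 members, the block had no call of a member to remove. For the 30 results of members with the smallest p-values, 603 of 650 alternative values stayed on their side of the threshold, 47 passed it and 0 changed sign. To stay meant to remain uncalled. These results were picked by p in the same libraries that the alternatives use, so the kept signs are not independent support. Over all 252 results of named members (42 in 6 comparisons), 80 had both signs among the alternatives. The median member had 56.3 counts a library, and the effect of depth on the calls was not tested.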
